A study of Mus musculus with 4 samples.

Results

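The nuclear genes of oxidative phosphorylation were followed through ATAC-seq of embryonic mouse hearts with and without SMYD1, a lysine methyltransferase found in striated muscle. The members were the protein-coding genes of GENCODE release M21 that lie on autosomes and whose symbol starts with *Nduf*, *Uqcr*, *Cox4* to *Cox8* or *Atp5*, together with *Sdha*, *Sdhb*, *Sdhc* and *Sdhd*. They came to 91 gene records with 90 symbols, out of 20807 autosomal protein-coding genes, because *Atp5o* has 2 gene models. Another 3 genes with such symbols, *Ndufa1*, *Ndufb11* and *Cox7b*, are X-linked and were left out. The naming rule uses no measured value, though it was set with earlier results of these data known.

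Oxidative phosphorylation takes place in the inner mitochondrial membrane. Complexes I and II pass electrons from NADH and succinate to ubiquinone, complex III passes them on to cytochrome c, and complex IV hands them to oxygen. Complexes I, III and IV pump protons as they do so, and complex V, the ATP synthase, uses the proton gradient to make ATP. A few core subunits are encoded in mitochondrial DNA, and all of the members are encoded in the nucleus and imported. The early embryonic heart is known for its reliance on glycolysis, and its mitochondria mature as gestation proceeds.

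The hearts were taken at embryonic day 9.5 (E9.5) and were wild type (WT) or *Smyd1-KO*, that is, homozygous for a null allele of *Smyd1*, so that the protein is missing in every cell and not in the heart alone. No treatment was given to either genotype. Each genotype had 2 libraries, and each library came from a pool of 4 cryopreserved hearts from which 40000 viable cells were taken, so single embryos cannot be told apart. In ATAC-seq the Tn5 transposase inserts adapters into DNA that nucleosomes leave free, and a peak marks open chromatin where such insertions pile up. Whole hearts hold several cell types, so more cells of a type with an open promoter and a more open promoter in each cell cannot be told apart.

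The deposited data are lists of peaks whose tags differed by 2-fold or more. The list of *Smyd1-KO*-enriched peaks, called gained peaks here, has 25745 entries and the WT-enriched list has 106, and all intervals have the same width. The authors combined the libraries of a genotype before calling peaks, so replicate errors are unknown and no test over libraries was possible. The depth of each library is not given by the lists. The value of a peak, called its score here, is taken as the pooled tags in the genotype where it was called. The lists have no header, and many scores are not whole numbers, so they are not raw counts and how they were scaled is not given in the sources used here. The median score over the *Smyd1-KO*-enriched list was 180.5 tags. A gene with no listed peak is a gene at which no peak differed by 2-fold, and it may be open or closed in both genotypes. The lists hold no unchanged peaks, so defining markers of heart tissue could not be checked. *Smyd1* itself had 2 *Smyd1-KO*-enriched peaks within the gene, none within 3 kb of a transcription start site (TSS) and no WT-enriched peak, which does not check the genotype because the peaks say nothing of the allele.

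Most oxidative phosphorylation genes had a gained peak near a TSS. The *Smyd1-KO*-enriched list was far longer than the WT-enriched list, with 25745 against 106 peaks. Whether depth or scaling differed between the genotypes was not tested. Of the 91 members, 74 had a gained peak within 3 kb of a TSS, a share of 81.3% (exact Clopper-Pearson 95% interval 71.8 to 88.7%). Over all autosomal protein-coding genes the same share was 52.4%, and over the 20716 that are no members it was 52.2%. All intervals given here cover counting error only, and genes are not independent samples. No member had a WT-enriched peak within 3 kb, a count that allows a share of up to 3.97%, and over all autosomal protein-coding genes that share was 0.0192%. The WT-enriched peak nearest to a member lay 204613 bp from a TSS of *Uqcrb*.

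Peaks that carry these values are printed first, so that the sequence can be seen beside the score. For each complex, the strongest peak that touches no annotated exon was taken, among members with an entry in the RefSeq promoter table. The 4 with the highest scores are shown on the strand of their gene, 5′ to 3′, from GRCm38 (the sequence of mm10). Capitals mark CCAAT, the CCAAT box on either strand, a string that was added to the search after these sequences were seen. The intervals are chr11:96075759-96075907 (minus strand) upstream of *Atp5g1*, chr19:3912814-3912962 (minus strand) upstream of *Ndufs8*, chr11:120098747-120098895 (plus strand) upstream of *Ndufaf8* and chr19:7217631-7217779 (minus strand) upstream of *Cox8a*.
Atp5g1: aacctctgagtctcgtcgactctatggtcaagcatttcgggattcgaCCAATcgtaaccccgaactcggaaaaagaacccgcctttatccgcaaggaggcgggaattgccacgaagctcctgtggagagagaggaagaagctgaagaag
Ndufs8: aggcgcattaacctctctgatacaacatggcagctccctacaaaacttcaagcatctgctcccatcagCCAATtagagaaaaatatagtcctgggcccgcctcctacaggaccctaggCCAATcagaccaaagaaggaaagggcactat
Ndufaf8: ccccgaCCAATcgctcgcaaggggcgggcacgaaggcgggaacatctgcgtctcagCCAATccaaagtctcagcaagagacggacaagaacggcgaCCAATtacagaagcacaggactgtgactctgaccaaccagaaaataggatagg
Cox8a: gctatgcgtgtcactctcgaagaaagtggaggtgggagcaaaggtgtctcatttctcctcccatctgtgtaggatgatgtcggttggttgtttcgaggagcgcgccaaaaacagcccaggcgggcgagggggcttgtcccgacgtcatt

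The scores of these peaks were 1118.5 tags at *Atp5g1*, 1048.5 at *Ndufs8*, 938 at *Ndufaf8* and 728 at *Cox8a*. All 4 ended within 89 bp of a TSS and lay in the intergenic stretch just before it. The *Ndufs8* interval holds 2 CpG dinucleotides, the *Cox8a* and *Ndufaf8* intervals hold 10 each, and the *Atp5g1* interval holds 11. CCAAT was not more frequent in the members' peaks in general, as 14 of the 74 strongest peaks held it (18.9%, 95% interval 10.7 to 29.7%), against 26.5% of the strongest peaks of other coding genes.

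Promoters of mitochondrial genes are known for sites of NRF1 and GABPA, also named NRF2 for nuclear respiratory factor 2, of YY1 and of the oestrogen-related receptors (ERR). Fixed strings were therefore searched on both strands from 250 bases before to 50 bases after the start of each gene in RefSeq (GRCm38.p6). The strings were GCGCATGC for NRF1, CCGGAAGT for GABPA, AAGATGGCG for YY1, TCAAGGTCA for ERR, GGGGCGGGG for the GC box, TATAAA for the TATA box and CCAAT. Of the members, 73 had such a promoter entry. The NRF1 string was found in 12 of the 73 (16.4%, 95% interval 8.79 to 27.0%), against 4.07% of 15801 other coding genes and 5.19% of those with the same GC content. The YY1 string was found in 8 (11.0%, 4.85 to 20.5%), against 2.19% and 2.76%. The other strings differed less in share or rested on few genes, with GABPA in 5 members (6.85% against 6.03%, or 7.52% of those with the same GC content), ERR in 2 (2.74% against 0.373% or 0.374%), the GC box in 13 (17.8% against 18.2% or 20.6%), the TATA box in 7 (9.59% against 14.7% or 10.5%) and CCAAT in 32 (43.8% against 42.1% or 42.2%). Where a gene has several starts all were searched, which applied to 5 of the 73 members and to 2602 of the other genes.

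Of the 13 places where the NRF1 string was found, 7 lay inside a gained peak. Those 7 are shown as 30 bases on the strand of the gene, followed by *Uqcr11*, which had no listed peak. Capitals mark the string, which matches both strands at once where 10 bases are in capitals.
Ndufa6, chr15:82354356-82354385, minus strand: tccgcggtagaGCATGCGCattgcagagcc
Sdhb, chr4:140961206-140961235, plus strand: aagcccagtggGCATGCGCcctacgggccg
Ndufa11, chr17:56717692-56717721, plus strand: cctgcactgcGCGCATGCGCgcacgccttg
Ndufa8, chr2:36049328-36049357, minus strand: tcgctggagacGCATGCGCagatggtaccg
Ndufaf4, chr4:24897960-24897989, plus strand: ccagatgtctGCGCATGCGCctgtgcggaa
Ndufaf5, chr2:140170652-140170681, plus strand: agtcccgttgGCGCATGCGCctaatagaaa
Atp5k, chr5:108434430-108434459, minus strand: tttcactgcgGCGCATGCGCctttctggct
Uqcr11, chr10:80406807-80406836, minus strand: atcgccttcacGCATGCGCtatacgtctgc

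Counting the start as 0, the capitals begin at -83 in *Ndufa6*, -54 in *Sdhb*, -60 in *Ndufa11*, -8 in *Ndufa8*, -113 in *Ndufaf4*, 16 in *Ndufaf5*, -50 in *Atp5k* and -4 in *Uqcr11*. The strongest peaks of the first 7 had scores of 998, 920, 711.5, 493.5, 361.5, 340 and 221.5 tags in that order, and in *Ndufa11* the string lay in the other peak, of 423.5 tags. Genes with the string inside a peak thus covered most of the range of scores.

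The YY1 string was on the sense strand in all 8 members that had it. In 7 of them it began 10 to 35 bases after the start, whereas it was on the sense strand after the start at 49.1% of 373 places in other coding genes. The following 30-base windows show it in capitals.
Atp5j2, chr5:145191500-145191529, minus strand: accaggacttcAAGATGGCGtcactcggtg
Ndufc1, chr3:51408915-51408944, minus strand: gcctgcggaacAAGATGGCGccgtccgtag
Ndufs7, chr10:80249462-80249491, plus strand: aggccgaggccAAGATGGCGgcgctggcgg
Ndufaf8, chr11:120098933-120098962, plus strand: aggcagggcccAAGATGGCGgcgccctcga
Ndufa9, chr6:126849097-126849126, minus strand: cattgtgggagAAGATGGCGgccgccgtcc
Ndufs6, chr13:73328433-73328462, minus strand: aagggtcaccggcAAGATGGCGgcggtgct
Ndufs4, chr13:114388045-114388074, minus strand: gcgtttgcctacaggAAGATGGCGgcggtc

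Only in *Atp5j2* and *Ndufc1* did the string of these windows lie inside a gained peak, with strongest scores of 268.5 and 393 tags. *Ndufs4* had no listed peak, and its nearest was 70212 bp away. When the strongest peaks themselves were searched, the YY1 string was in 6 of 74, *Atp5j2*, *Ndufc1* and *Uqcrh* among them, or 8.11% (95% interval 3.03 to 16.8%), against 1.53% of the strongest peaks of other coding genes. The NRF1 string was also in 6 (8.11%) against 2.78%. The GC box was in 3 (4.05%, 0.844 to 11.4%) against 15.2%, and the peaks had a median GC content of 62.4% against 67.1%. A promoter with NRF1, GABPA or YY1 was found for 20 of the 59 members that had a peak and a promoter entry, and for 4 of the 14 that had an entry and no peak. Over all members with an entry this share was 32.9% (95% interval 22.3 to 44.9%). It was 11.5% in other coding genes and 14.4% in those with the same GC content. A match is a string of letters and not a measured binding site.

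**Figure D1:**
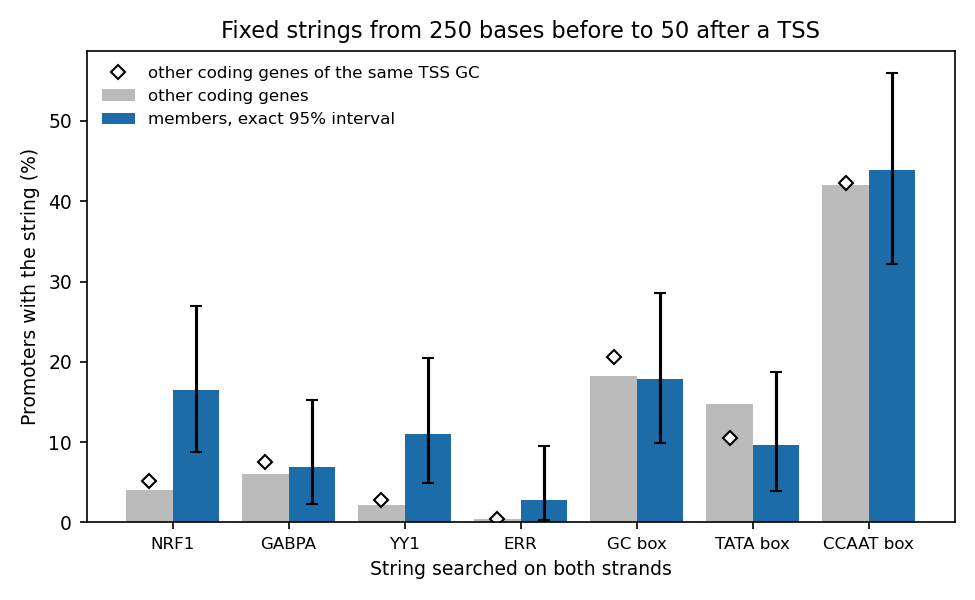
Share of genes (%) with each fixed string from 250 bases before to 50 bases after a RefSeq start, for 73 members (blue bars, exact 95% intervals), other coding genes (grey bars) and other coding genes of the same GC content (diamonds). The NRF1 and YY1 bars of the members, 16.4% and 11.0%, stand above both references, the GC box bar (17.8%) stands below both, and the CCAAT bar (43.8%) is within 2 points of both.

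The members were then compared with other coding genes of like base composition, since GC-rich promoters are more often in the list. Each member was set against the other coding genes in the same of 20 equal bins of GC content, taken over 500 bp to either side of its TSSs, and the mean of their shares is called the GC-standardised share. It was 61.3%, so the members lay 19.99 percentage points above it. Coding genes were also split into 5 equal groups of GC content. In the lowest group 1 of 2 members had a peak, against 11.4% of other genes. In the second group the members had a peak in 11 of 18 cases (61.1%) against 46.0%, in the third in 30 of 34 (88.2%) against 59.4%, and in the fourth in 23 of 26 (88.5%) against 69.2%. In the highest group 9 of 11 members (81.8%) and 75.2% of other genes had a peak. The excess depended on what else was held alike. With 10 bins of GC content crossed with 3 bins of the length covered by the TSS windows, the standardised share was 55.9% and the difference 25.4 points. Against genes of the same CpG content the difference was smaller. The ratio of observed to expected CpG had a median of 0.619 in members and 0.454 in other genes. With 20 bins of this ratio the standardised share was 71.0% and the difference 10.4 points, and with these bins crossed with the presence of a divergent partner, an alternative chosen after seeing the data, they were 73.8% and 7.52 points. The share of 71.0% lies just below the members' own interval of 71.8 to 88.7%, and that of 73.8% lies inside it.

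**Figure D2:**
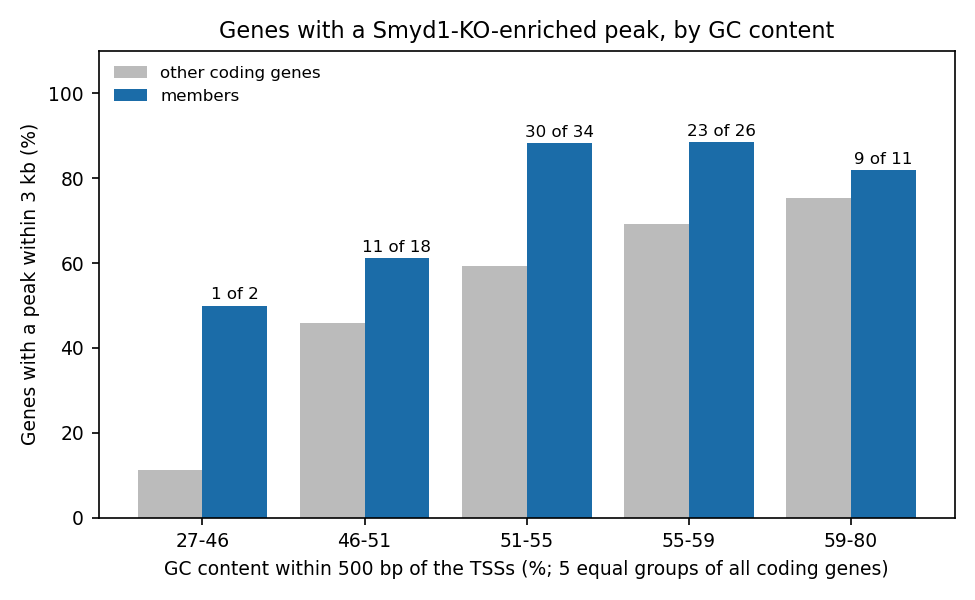
Share of genes (%) with a gained peak within 3 kb of a TSS in 5 equal groups of the GC content around the TSS, for members (blue bars, with counts) and other coding genes (grey bars). The members stand above the other genes in each group, by the most in the lowest group, which rests on 2 members, and by the least in the highest (81.8% against 75.2%).

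Divergent promoters are those from which 2 genes are read in opposite directions. A coding gene on the other strand began within 1 kb upstream of 32 of the 91 members (35.2%), against 11.2% of other coding genes. The share was 37.2% in mitochondrial ribosomal protein genes, 31.7% in the other oxidative phosphorylation genes, 23.1% in proteasome genes and 19.7% in cytosolic ribosomal protein genes. A peak was listed for 28 of these 32 members (87.5%, 95% interval 71.0 to 96.5%) and for 84.0% of the 2318 other genes with a divergent partner. Without such a partner, 46 of 59 members (78.0%, 65.3 to 87.7%) and 48.2% of the 18398 other genes had a peak. For 33 of the 74 members with a peak (44.6%) the strongest peak also lay within 3 kb of another coding gene, as between *Atp5j* and *Gabpa*, *Ndufaf8* and *Tepsin*, *Atp5h* and *Kctd2* or *Ndufb5* and *Mrpl47*. Among other coding genes this share was 25.9%. Such a peak cannot be given to either gene of the pair.

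**Figure D3:**
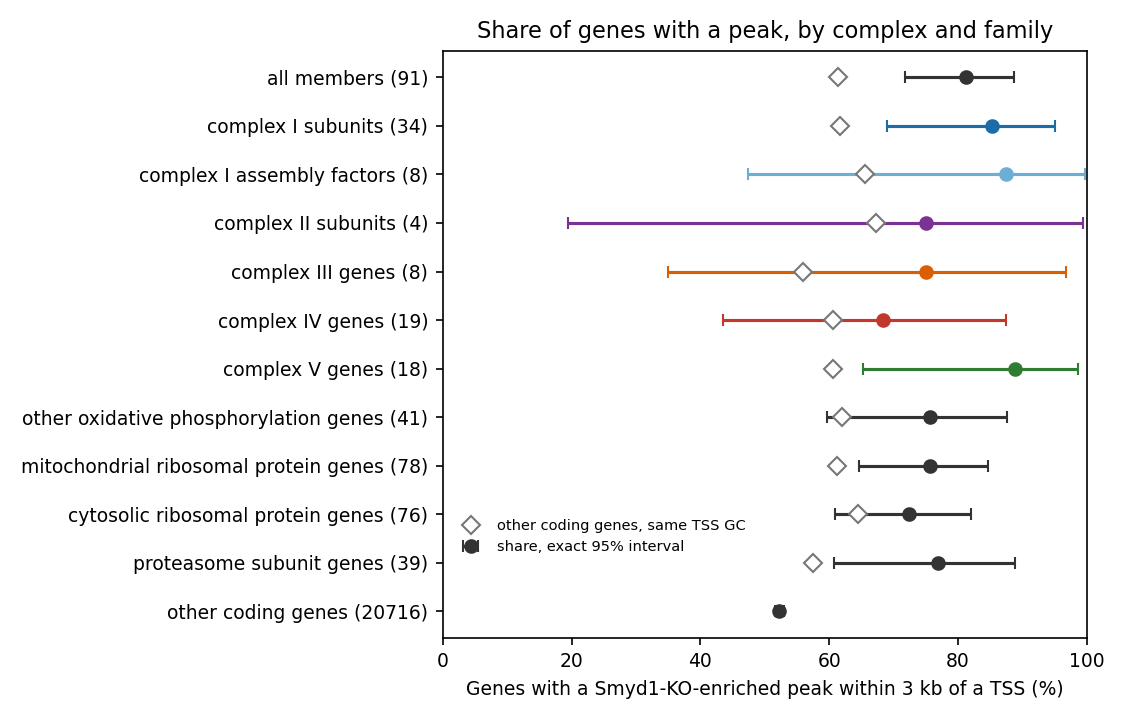
Share of genes (%) with a gained peak within 3 kb of a TSS, with exact 95% intervals, by complex and for comparison families, with the number of genes in brackets. Diamonds give other coding genes of the same GC content. The shares run from 68.4% in complex IV to 88.9% in complex V, the intervals of all complexes overlap, and the order changes when each peak counts only for the nearest coding gene (complex III 50%, complex IV 63.2%).

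The strength of the members' peaks was not unusual. The strongest peak of the 74 members had a median score of 442 tags (quartiles 326.75 and 647.5, range 107.5 to 1118.5), against 469 (299 and 702.5) in other coding genes with a peak. The median score of the list was reached or passed within 3 kb by 68 members (74.7%), against 46.8% of all autosomal protein-coding genes. The median member peak was at the 77.5th percentile of the list, but at percentile 48.7 among the strongest peaks of other genes of the same GC content. The members' scores thus lay in the middle of those of other promoters of the same GC content.

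**Figure D4:**
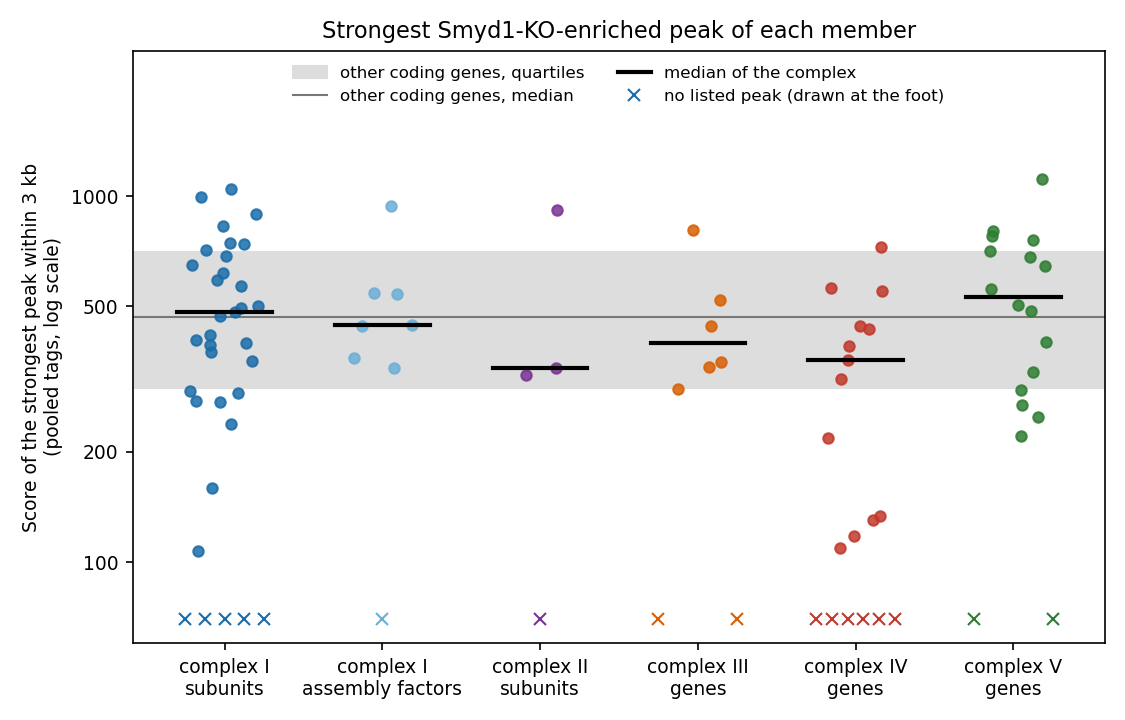
Score of the strongest gained peak within 3 kb of a TSS (pooled tags, log scale) for each member with a peak (circles), by complex, with the median of the complex (black bars); crosses at the foot stand for members with no listed peak. The grey band and line give the quartiles and median of other coding genes. The complex medians run from 340 to 531 tags, and 4 of the 5 scores under 150 tags belong to complex IV.

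The peaks sat at the start of the genes. The 74 members had 84 distinct peaks within 3 kb, with 1 peak at 65 genes, 2 at 8 and 3 at *Uqcrh*. The strongest peak was within 500 bp of a TSS in 67 of 74 (90.5%, against 87.5% in other coding genes), and its centre had a median position of -29 bp relative to the TSS (-40 bp in others). A peak covered a TSS of 50 members, or 54.9% (95% interval 44.2 to 65.4%), whereas 28.4% of all autosomal protein-coding genes had such a peak. Among genes with a peak the gap was smaller. There the strongest peak covered a TSS in 48 of 74 members (64.9%), against 49.6% of other coding genes.

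**Figure D5:**
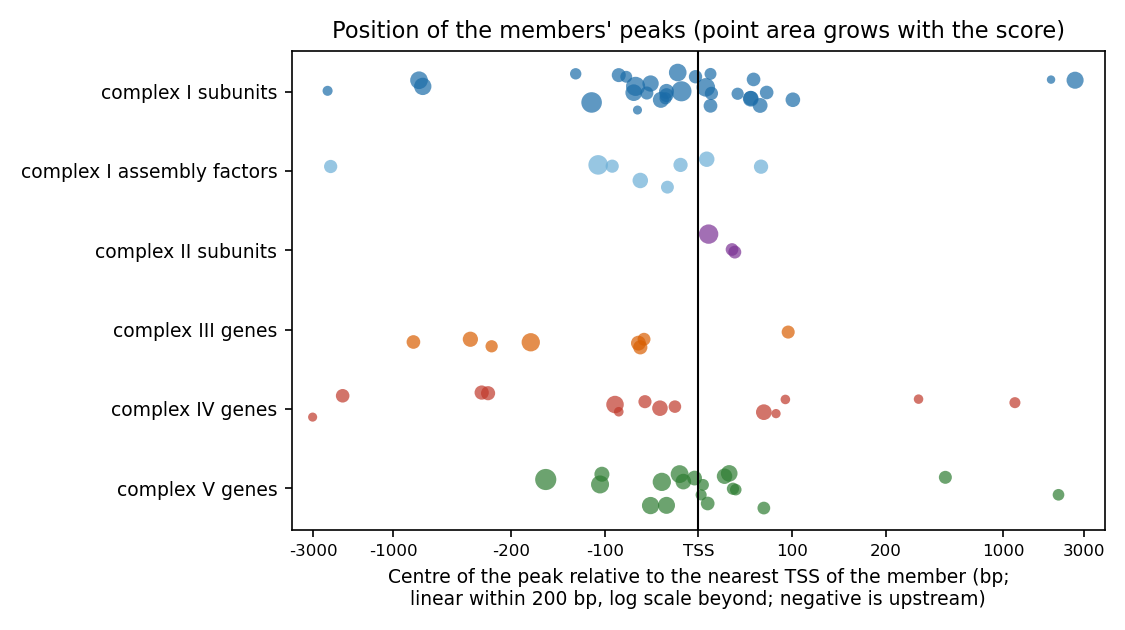
Position of the centre of each of the 84 peaks within 3 kb relative to the nearest TSS of its member (bp, linear within 200 bp and on a log scale beyond), by complex, with point area growing with the score. Most peaks lie within 200 bp of the TSS, and complex IV has weak peaks farther out on both sides.

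Complex I, the NADH dehydrogenase, is the largest complex. Of its 34 subunit genes, 29 had a peak (85.3%, 95% interval 68.9 to 95.05%; GC-standardised share of other genes 61.7%), and in 22 a peak covered a TSS. The median strongest score was 482 tags. The highest was at *Ndufs8*, a core subunit that carries iron-sulphur clusters, with 1048.5 tags at 40 bp from a TSS (gene at chr19:3908863-3912774). *Ndufa6*, an accessory subunit, had 998 tags over its TSS (chr15:82350140-82354322), and *Ndufb5*, an accessory subunit of the membrane arm, had 894.5 tags over its TSS (chr3:32736990-32751566).

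The core subunits, which hold the flavin and the iron-sulphur clusters of the peripheral arm, are conserved from bacteria. *Ndufv1*, which binds the flavin, had 832 tags, *Ndufv2* had 740.5, *Ndufs7* had 354 and *Ndufs1* had 293. *Ndufs3*, also a core subunit, had no listed peak, and the nearest was 8600 bp away. Among the 27 accessory subunits 23 had a peak (85.2%, 95% interval 66.3 to 95.8%, against 52.4% of all autosomal protein-coding genes). Their median score was 471 tags. The lowest score of any member was at *Ndufa9*, with 107.5 tags over its TSS. *Ndufs6* had 159.5 tags in a peak 2382 bp from its TSS that also lay within 3 kb of *Mrpl36*. The accessory subunits without a peak were *Ndufa7*, *Ndufb8*, *Ndufc2* and *Ndufs4*, with the nearest listed peak at 6837, 7154, 17305 and 70212 bp. These subdivisions were chosen after the values were seen.

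Complex I assembly factors help to build the complex and are not part of it. Of the 8 genes, 7 had a peak (87.5%, 95% interval 47.3 to 99.7%; GC-standardised 65.5%). *Ndufaf8* had the highest score with 938 tags, followed by *Ndufaf3* with 544 and *Ndufaf2* with 540. The other 4 with a peak, *Ndufaf4*, *Ndufaf5*, *Ndufaf6* and *Ndufaf7*, lay between 340 and 446 tags. *Ndufaf1* had no listed peak, and the nearest was 12045 bp from its TSS. The GC content around the TSSs of *Ndufaf1* was 50.03%, the lowest of the 8, but *Ndufaf7*, with 50.6%, had a peak of 441 tags over a TSS.

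Complex II, succinate dehydrogenase, also belongs to the citric acid cycle and is encoded wholly in the nucleus. *Sdhb*, the iron-sulphur subunit, had a peak of 920 tags over its TSS (chr4:140961203-140979193). *Sdha*, the flavoprotein that oxidises succinate, had 325.5 tags (chr13:74322254-74350280), and *Sdhc*, a membrane anchor, had 340 tags (chr1:171127165-171150603), both over a TSS. *Sdhd*, the other membrane anchor, had no listed peak within 13481 bp (chr9:50596357-50603812), although it shares a divergent promoter with *Timm8b*. In 3 of the 4 genes a peak was thus listed (75%, 95% interval 19.4 to 99.4%; GC-standardised 67.3%).

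Complex III, the cytochrome bc1 complex, had a peak at 6 of 8 genes (75%, 95% interval 34.9 to 96.8%; GC-standardised 56.0%), and a peak covered a TSS in 3. *Uqcrq*, a small subunit, had the highest score, with 807.5 tags at 105 bp from the TSS on the side of *Gdf9*. *Uqcrh*, the hinge protein, was the only member with 3 peaks, of 491, 521.5 and 397.5 tags, the first over the TSS and the others 275 and 686 bp away on the side of *Lrrc41*. *Uqcrc2* and *Uqcrc1*, the core proteins, had 441.5 and 341.5 tags. *Uqcrb* had 352.5 tags and *Uqcr10* had 297. *Uqcrfs1*, which encodes the Rieske iron-sulphur protein, had no listed peak within 58648 bp in spite of a CpG ratio of 1.04, the highest of the members. *Uqcr11* had none within 7036 bp.

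Complex IV is cytochrome c oxidase. A peak was listed for 13 of 19 genes (68.4%, 95% interval 43.4 to 87.4%; GC-standardised 60.6%), and a peak covered a TSS in 4 (21.1%, 6.05 to 45.6%), an interval that holds the 28.4% of all autosomal protein-coding genes. The same share was 64.7% in complex I subunit genes, 62.5% in its assembly factors, 75% in complex II, 37.5% in complex III and 72.2% in complex V. The median score of 357.5 tags was below those of complexes I, III and V and above the 340 of complex II. The list median was reached by a peak of 9 of the 19 genes (47.4%), close to the 46.8% of all autosomal protein-coding genes. A divergent partner was found for 2 of 19 genes (10.5%), close to the 11.2% of other coding genes and below the 35.2% of all members. The highest scores were at *Cox8a* (728 tags), *Cox7a2* (562.5) and *Cox5a* (549.5), subunits made in most tissues. *Cox5b* and *Cox6b1*, likewise made in most tissues, had no listed peak within 7089 and 15342 bp.

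Complex IV is the complex with the most tissue isoforms, and these were set beside their widely made counterparts. *Cox6a2*, the isoform of heart and skeletal muscle, had 133.5 tags at 19 bp from the TSS, and *Cox6a1* had 218 tags at 1098 bp. *Cox7a1*, likewise a muscle isoform, had no listed peak within 8768 bp, and *Cox7a2* had 562.5 tags over the TSS. *Cox8b*, the third muscle isoform, had 109.5 tags in a peak 2939 bp away, and *Cox8a* had 728 tags at 15 bp. Within 3 kb the muscle isoform thus had the lower score or no peak in these 3 pairs. Within 1 kb of a TSS, however, *Cox6a2* had 1 peak and *Cox6a1* had 0, so that pair depends on the window. The CpG ratio of the muscle isoforms was also lower, between 0.245 and 0.269 against 0.685 to 0.955. The part of this ratio in the scores was not tested.

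Among the testis isoforms, *Cox8c* had no listed peak within 13364 bp, against the 728 tags of *Cox8a*, as in the muscle pair of *Cox7a1* and *Cox7a2*. *Cox7b2*, whose counterpart is X-linked, had none within 152848 bp. *Cox6b2* went the other way, with 2 peaks, the stronger of 357.5 tags over the TSS, while its counterpart *Cox6b1* had none. *Cox4i2*, an isoform of lung known to be induced at low oxygen, had 130.5 tags at 240 bp from a TSS in an intron, and *Cox4i1*, its widely made counterpart, had none within 10489 bp. *Ndufa4l2*, a target of the hypoxia response, had 390 tags at 1925 bp upstream, and *Ndufa4* had 442.5 tags at 225 bp. Of the 8 isoforms of muscle, testis or regulated expression 5 had a peak (62.5%, 95% interval 24.49 to 91.5%, which holds the 52.4% of all autosomal protein-coding genes), with a median of 133.5 tags, and 1 had a peak over a TSS. Of the other 11 complex IV genes 8 had a peak (72.7%, 95% interval 39.0 to 94.0%), with a median of 437.75 tags, and 3 had one over a TSS. The remaining complex IV scores were 433 tags at *Cox7a2l*, 316 at *Cox7c* and 118 at *Cox6c*.

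Complex V is the ATP synthase. A peak was listed for 16 of 18 gene records (88.9%, 95% interval 65.3 to 98.6%; GC-standardised 60.6%), a peak covered a TSS in 13, and the median score was 531 tags. All 3 genes of the c-ring, which encode the same mature protein with different targeting sequences, had a peak. The 95% interval of this share, 29.2 to 100%, holds the 52.4% of all autosomal protein-coding genes. *Atp5g1* had 1118.5 tags at 89 bp from the TSS (chr11:96068852-96075670), the highest score of the members and at the 96.8th percentile of strongest peaks at the same GC content. *Atp5g2* had 804 tags over a TSS and a second peak of 347.5 tags (chr15:102662864-102672352), and *Atp5g3* had 249.5 tags over its TSS. The scores of 3 genes for the same protein thus ran from 249.5 to 1118.5 tags.

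The 5 genes of the F1 head and central stalk, where ATP is made, all had a peak. The 95% interval of this share, 47.8 to 100%, holds the 52.4% of all autosomal protein-coding genes. The scores were 778 tags at the catalytic subunit gene *Atp5b*, 680.5 at *Atp5d*, 557.5 at *Atp5c1*, 485 at *Atp5e* and 295 at *Atp5a1*. In the peripheral stalk, *Atp5h* had 707 tags, *Atp5j* 644.5 and *Atp5f1* 504.5. *Atp5o* had 330.5 tags over the TSS of its shorter gene model (chr16:91925214-91931687). The longer model of the same name (chr16:91684398-91926982) had no listed peak within 4561 bp, and without it 82.2% of the members had a peak. Of the membrane subunits, *Atp5mpl* had 400.5 tags, *Atp5j2* 268.5 and *Atp5k* 221.5, and *Atp5l* had none within 32774 bp. *Atp5s*, a coupling factor, had 759.5 tags over a TSS. The grouping by position in the enzyme was chosen after the values were seen.

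The 17 members without a listed peak were spread over all complexes. For 7 of them a gained peak lay between 3 and 10 kb from a TSS, and for 10 there was none within 10 kb. Their TSSs had a median GC content of 51.8%, against 54.3% in the members with a peak, and the median CpG ratio was 0.619 and 0.622. Of the 17, 4 had a divergent partner.

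Other genes of the pathway outside the naming rule were counted from a list of 41 that holds cytochrome c, *Cyc1*, which encodes the catalytic subunit cytochrome c1 of complex III, assembly factors of complexes II to V and further factors of complex I. A peak was listed for 31 (75.6%, 95% interval 59.7 to 87.6%; GC-standardised 62.0%), with a median score of 558.5 tags. *Bcs1l*, which inserts the Rieske protein into complex III, had 1157 tags, *Sdhaf1*, an assembly factor of complex II, had 955 and *Cycs*, somatic cytochrome c, had 600. The 10 without a listed peak were *Cyc1*, *Cyct*, *Uqcc1*, *Uqcc2*, *Sdhaf4*, *Surf1*, *Cox10*, *Cox16*, *Acad9* and *Higd2a*. *Cyct* is the cytochrome c of testis.

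A comparison with other large families showed shares of the same order. A peak was listed for 59 of 78 genes of mitochondrial ribosomal proteins (75.6%, 95% interval 64.6 to 84.7%), for 30 of 39 proteasome subunit genes (76.9%, 60.7 to 88.9%) and for 55 of 76 genes of cytosolic ribosomal proteins (72.4%, 60.9 to 82.0%). The GC-standardised shares for these families were 61.2%, 57.6% and 64.5%. The interval of the members overlapped all of these, so the share of 81.3% was not separated from that of other widely expressed families. A peak over a TSS was listed for 54.9% of the members, 47.4% of the mitochondrial ribosomal, 51.3% of the proteasome and 44.7% of the cytosolic ribosomal genes.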

How the data were processed

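ATAC-seq was made from E9.5 WT and *Smyd1-KO* hearts, 2 libraries per genotype. The authors aligned reads to mm10 with BWA-MEM, called peaks with HOMER (4.10.3) on the combined libraries of a genotype and deposited 2 lists of peaks that differed at least 2-fold. The deposited value is a signal, taken here as the pooled tags of the peak in its genotype. The lists have no header, and many values are not whole numbers. The handling of duplicates, multiple alignments and the Tn5 offset is not given in the sources used here, and each could change which peaks are listed.

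Peaks were set against all TSSs of GENCODE M21, with the distance taken from the nearer edge of the peak. Shares have exact Clopper-Pearson 95% intervals. With pooled lists the planned descriptions had no test. Base composition and the printed peaks came from GRCm38, and promoters from RefSeq through Entrez identifiers. The code was tested on simulated data. Python 3.11.15, numpy 2.4.6, pandas 2.3.3, scipy 1.17.1 and matplotlib 3.10.9 were used. Genes named are all members without a peak, the *Sdh* genes, isoforms and counterparts, the 3 highest scores of each complex, members with 3 or more peaks, and others in lists of their complex. The members and lists were chosen with earlier results of these data known. Alternatives changed the window, TSSs, score limit, distance, assignment and standardisation. Some single-gene values are not reported here.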

Additional observations from a re-analysis of the deposited data

How the results depend on the processing

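With a window of 10 kb the share of members with a peak was 89.0%, that of other coding genes 60.9%, the GC-standardised share 71.5% and that of the other oxidative phosphorylation genes 87.8%. When each peak counted only for the coding gene with the nearest TSS, the members' share was 71.4% and that of other coding genes 47.8%. Other coding genes had a peak in 49.1% of cases at 1 kb, in 50.6% with TSSs of protein-coding transcripts, in 47.9% with the 5′-most TSS and in 46.6% among peaks that reach the median score. The GC-standardised share itself was 57.7% at 1 kb, 59.3% with TSSs of protein-coding transcripts, 56.0% with the 5′-most TSS, 55.1% among peaks that reach the median score and 55.9% when a peak counted only for the nearest gene, and the difference ran from 15.5 to 24.2 points over these and the other definitions of a peak. The choice of bins moved it both ways. With GC bins crossed with the length covered by the TSS windows the standardised share was 55.9% and the difference 25.4 points, with bins of the CpG ratio they were 71.0% and 10.4 points, and with these bins crossed with a divergent partner, chosen after seeing the data, 73.8% and 7.52 points. Peaks widened by 50 bp on each side covered a TSS of 68.1% of the members. The other 75 of 96 recomputed values stayed within the counting interval of the value reported (for differences, that of the members' share), or within its quartiles for the median score. In each alternative run for both, the share of members with a peak inside the window was above that of other coding genes. No paired analysis was possible because the deposited lists pool the libraries of a genotype. For the same reason no library could be left out, and the spread between pools is unknown.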
